A study of Mus musculus with 6 samples.

Results

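The genes described here are 9 enzymes of the pentose phosphate pathway and of cytosolic NADPH supply: G6pdx, H6pd, Pgls, Pgd, Rpia, Rpe, Tkt, Taldo1 and Idh1. They were chosen by name, with earlier results of these data known. A probe set was used where the platform annotation gave it 1 of these symbols and no other. This found 16 probe sets for 8 of the 9 genes, out of 34945 probe sets of 18193 genes on the array. G6pdx had no such probe set and was not analysed here. All 8 genes passed the filter on low levels, and 15 of their 16 probe sets did.

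Livers came from male C57BL/6 mice, an inbred laboratory strain, that ate one of 2 diets for 12 weeks from 8 weeks of age. The high-fat group received a diet with 60% of its calories from fat. The normal diet group received a normal diet, whose composition is not given in the sources used here. Each diet had 6 mice, and RNA was pooled from 2 mice per array, read here as 3 pools and 3 Affymetrix mouse expression arrays per diet. Values are log2 expression levels, so a difference of 1 is a doubling. Each difference is the high-fat mean minus the normal diet mean, given ± its standard error (SE) in the limma fit. As each array holds a pool, the p-values take in the spread of pools and miss that of individual animals.

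The pentose phosphate pathway branches off from glucose 6-phosphate in the cytosol. Its oxidative branch reduces NADP+ to NADPH and releases ribulose 5-phosphate, and its non-oxidative branch interconverts sugar phosphates and returns them to glycolysis. NADPH is the reductant that fatty acid and cholesterol synthesis and the glutathione and thioredoxin systems draw on, and liver also makes it with malic enzyme and cytosolic isocitrate dehydrogenase. A separate oxidative reaction runs inside the endoplasmic reticulum, where hexose 6-phosphate dehydrogenase, the H6pd product, supplies NADPH to 11beta-hydroxysteroid dehydrogenase.

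The arrays of the high-fat group resembled each other more than those of the normal diet group did. Pearson's r, taken over probe sets that are not independent of each other, was 0.994 to 0.995 among high-fat arrays, 0.984 to 0.992 among normal diet arrays and 0.974 to 0.988 across diets. On the first principal component, with 61.0% of the variance, the high-fat arrays lay between -25.4 and -24.3, and the normal diet arrays at 15.6, 12.5 and 46.2, so normal diet 3 stood apart. The Gapdh control probe sets differed by 0.36 between the 3' and 5' ends in normal diet 1 and by -0.19 to 0.01 in the other arrays. The hepatocyte gene Alb, which encodes albumin, lay at 14.44 to 14.49 in the high-fat arrays and at 14.37 to 14.42 in the normal diet arrays. Alb is 1 of 10 hepatocyte markers tested and does not stand for them all, as Hnf4a was lower in the high-fat arrays (-0.69 ± 0.11).

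Of the 8 members tested, 3 rose under the high-fat diet, 1 fell and 4 were not called. Pgd rose 3.34-fold, Tkt 2.07-fold and Taldo1 1.65-fold, and H6pd fell, at a level 1.91-fold lower. Across all 14071 genes tested 7.6% were called, 5.87% higher and 1.73% lower (limma, adjusted p below 0.05). These were 826 higher and 244 lower genes, or 596 and 301 after a further quantile normalization. The median difference of the members was 0.41, against 0.0033 over all genes tested. As the members were chosen with earlier results of these data known, these contrasts describe them and test nothing. High-fat and normal diet levels were fully separate in the 4 called members and overlapped in the other 4. Over all genes tested 35.8% were fully separate, 21.1% with the high-fat arrays higher and 14.7% with them lower.

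**Figure D1:**
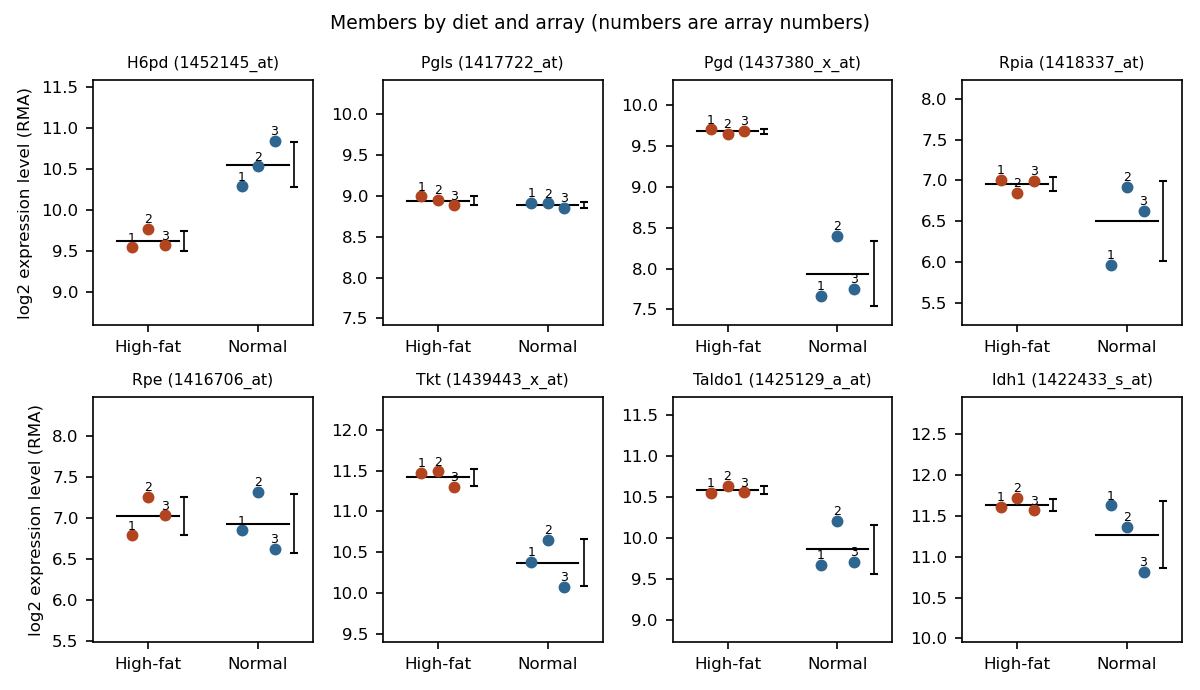
The log2 expression level of each of the 8 members in every array, with high-fat arrays left of normal diet arrays, lines for the group means and bars for the SD (n = 3 arrays per diet). Every panel spans 3 log2 units. Pgd, Tkt and Taldo1 lay higher in all 3 high-fat arrays, H6pd lay lower in all 3, and the normal diet arrays were spread more widely in 7 of the 8 genes.

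Among the genes of the oxidative reactions Pgd rose, H6pd fell and Pgls was not called. Pgd encodes 6-phosphogluconate dehydrogenase, the second NADPH-producing enzyme of the branch. Its level was 9.70, 9.65 and 9.69 in high-fat arrays 1, 2 and 3, against 7.67, 8.40 and 7.75 in normal diet arrays 1, 2 and 3. The high-fat arrays lay within 0.06 of each other and more than 1 log2 unit above the highest normal diet array, which was normal diet 2. The difference was 1.74 ± 0.19 (n = 3 arrays per diet, limma adjusted p = 0.00508), the 64th largest increase among the genes tested.

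Pgd was measured by 4 probe sets, and each of them was called higher when probe sets were tested one by one. Their differences ran from 1.54 ± 0.19 to 1.74 ± 0.19, with limma adjusted p between 0.00558 and 0.00813, where 6.03% of 23408 probe sets were called. In all 4, normal diet 2 had the highest level of the normal diet arrays and normal diet 1 the lowest. Of these probe sets 3 are of the kind that can also match other transcripts (suffix _x), and 1 can match several transcripts of the gene (suffix _a).

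Pgls encodes 6-phosphogluconolactonase, which hydrolyses the lactone between the dehydrogenases. It lay at 8.99, 8.95 and 8.88 in the high-fat arrays, against 8.92, 8.91 and 8.85 in the normal diet arrays. The groups overlapped, and the normal diet arrays spread less than in any other member measured (SD 0.056 in the high-fat arrays, 0.036 in the normal diet arrays). The difference of 0.050 ± 0.091 was not called (limma adjusted p = 0.751), with a 95% interval from -0.16 to 0.26, and its sign turned after quantile normalization (-0.088) and cyclic loess (-0.079).

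H6pd encodes the hexose 6-phosphate dehydrogenase of the endoplasmic reticulum, and it was the member that fell. It lay at 9.54, 9.77 and 9.57 in the high-fat arrays, against 10.29, 10.53 and 10.85 in the normal diet arrays. All high-fat arrays were below the lowest normal diet array, normal diet 1, and normal diet 3 was the highest of all. The difference was -0.93 ± 0.16 (n = 3 arrays per diet, limma adjusted p = 0.0168), the 145th largest decrease. Without normal diet 3 it was -0.79, with a limma adjusted p of 0.0112. H6pd rests on 1 probe set.

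**Figure D2:**
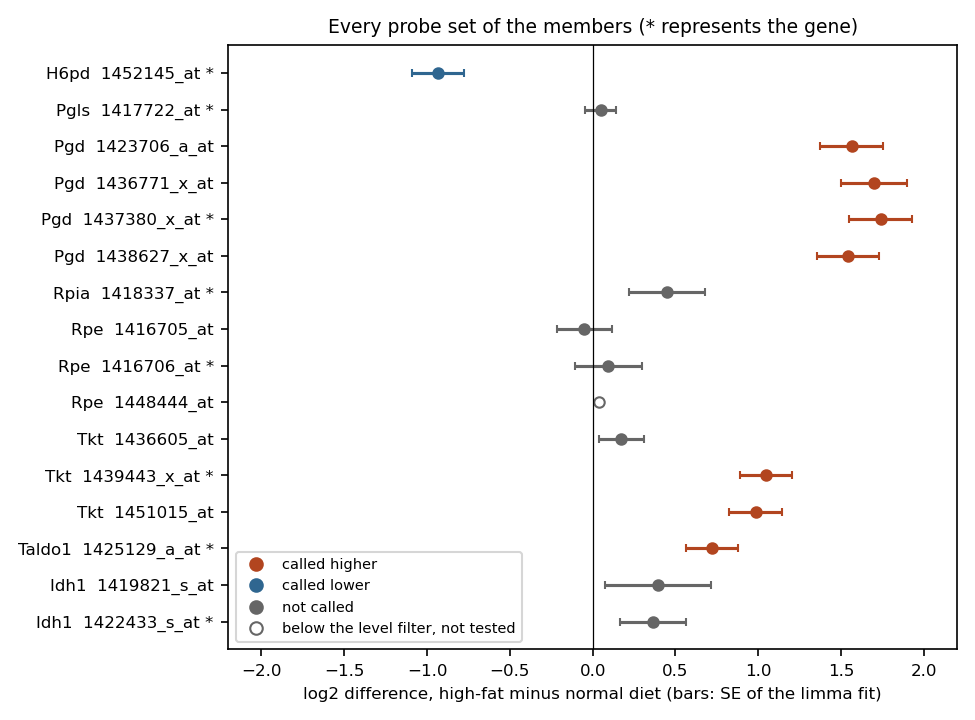
The log2 difference, high-fat minus normal diet, of each of the 16 probe sets of the members, with the SE of the limma fit as bars. Of the 15 tested, 7 were called higher (4 of Pgd, 2 of Tkt and 1 of Taldo1), 1 was called lower (H6pd) and 7 were not called.

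In the non-oxidative branch the genes of the transferases, Tkt and Taldo1, rose, and those of the isomerase and the epimerase, Rpia and Rpe, were not called. Tkt encodes transketolase, which moves carbon units between sugar phosphates and needs thiamine diphosphate. Its level was 11.47, 11.49 and 11.30 in the high-fat arrays, against 10.39, 10.65 and 10.08 in the normal diet arrays. The groups lay apart, with normal diet 2 closest to the high-fat arrays and normal diet 3 farthest. The difference was 1.05 ± 0.16 (limma adjusted p = 0.0119), the 288th largest increase. The probe set used for Tkt is also of the kind that can match other transcripts (suffix _x).

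A second Tkt probe set, without a suffix, lay at 10.20, 10.30 and 10.28 in the high-fat arrays, against 9.15, 9.62 and 9.05 in the normal diet arrays, and was also called (0.98 ± 0.16, limma adjusted p = 0.0164). The remaining one lay between 3.90 and 4.38 in the high-fat arrays and between 3.95 and 4.01 in the normal diet arrays, close to the level filter of 3.48 to 3.59, and was not called (0.17 ± 0.14). The mean of the Tkt probe sets differed by 0.74 (limma adjusted p = 0.0136).

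Taldo1 encodes transaldolase, which works beside transketolase in rearranging sugar phosphates. Its probe set lay at 10.55, 10.64 and 10.56 in the high-fat arrays, against 9.67, 10.21 and 9.71 in the normal diet arrays. Normal diet 2 came within 0.34 of the lowest high-fat array, and the other normal diet arrays lay lower. The difference was 0.72 ± 0.15 (limma adjusted p = 0.0358), the 769th largest increase and the one closest to the threshold among the called members. It was not called after cyclic loess (0.59, adjusted p = 0.0533) or without normal diet 1 (0.62, adjusted p = 0.0677).

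Shared regulation of the 3 members that rose was not tested, and their RefSeq promoters are shown as sequence only. Each runs from 250 bases before to 50 bases after an annotated start (GRCm38.p6), 5' to 3' on the gene's strand, and capitals mark every match on either strand to one of 6 motifs. These were the sterol regulatory element core ATCACCCC, the longer sterol regulatory element TCACNCCAC, the E-box CACGTG, the antioxidant response element TGACNNNGC, the GC box GGGCGG and the CCAAT box CCAAT. The first pair share TCAC and can overlap.
Pgd, chr4:149166656-149166955, minus strand: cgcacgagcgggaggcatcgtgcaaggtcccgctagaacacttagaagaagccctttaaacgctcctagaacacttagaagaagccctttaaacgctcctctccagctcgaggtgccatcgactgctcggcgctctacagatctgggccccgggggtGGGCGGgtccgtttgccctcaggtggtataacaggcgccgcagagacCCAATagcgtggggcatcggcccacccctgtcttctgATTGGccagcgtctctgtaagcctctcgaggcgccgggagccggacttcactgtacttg
Taldo1, chr7:141391910-141392209, plus strand: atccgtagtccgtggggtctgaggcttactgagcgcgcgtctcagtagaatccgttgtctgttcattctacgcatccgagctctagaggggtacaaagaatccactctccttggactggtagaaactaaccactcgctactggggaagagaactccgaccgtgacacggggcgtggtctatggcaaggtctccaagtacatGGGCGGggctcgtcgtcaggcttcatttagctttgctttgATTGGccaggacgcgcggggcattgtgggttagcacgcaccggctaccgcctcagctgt
Tkt, chr14:30548881-30549180, plus strand: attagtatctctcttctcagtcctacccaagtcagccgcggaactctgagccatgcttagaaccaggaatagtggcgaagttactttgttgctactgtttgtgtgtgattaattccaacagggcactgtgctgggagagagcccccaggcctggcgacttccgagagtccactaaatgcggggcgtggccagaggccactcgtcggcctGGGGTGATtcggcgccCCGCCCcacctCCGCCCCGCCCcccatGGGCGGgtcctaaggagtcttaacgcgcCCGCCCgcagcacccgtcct

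The Tkt promoter held the sterol regulatory element core once, on the minus strand from base -41 relative to the start, and 5 GC boxes, of which 1 neighbouring pair shares 1 base. The Pgd promoter held 1 GC box and 2 CCAAT boxes, and the Taldo1 promoter 1 GC box and 1 CCAAT box. In both Pgd and Taldo1 a CCAAT box on the minus strand began at base -9. Promoters of the uncalled members also held these boxes. Rpe had 2 GC boxes and 1 CCAAT box, and Rpia and Pgls had 1 GC box each. Idh1 had 2 GC boxes and 1 CCAAT box at its outer start and 1 GC box at its inner start. Of 32851 promoters of the same length, 0.77% held the sterol regulatory element core, 1.24% the longer element, 7.15% an E-box, 12.4% an antioxidant response element, 35.7% a GC box and 37.4% a CCAAT box. The motifs were chosen after the promoters had been read, so these shares do not gauge how unusual the matches are. A match is a run of letters and not a measured binding site. A second listed Pgd start, 623 bases inside the gene, had an antioxidant response element match from base 3, and the G6pdx promoter had one from base -57 and 1 GC box. The H6pd start in the table lies 5787 bases inside the gene, and its promoter held 1 CCAAT box and none of the letters of the other 5 motifs.

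Rpia encodes the isomerase that makes ribose 5-phosphate, the sugar of nucleotides. It lay at 7.01, 6.85 and 7.0 in the high-fat arrays, against 5.96, 6.92 and 6.63 in the normal diet arrays. Normal diet 2 overlapped the high-fat arrays, and normal diet 1 lay well below the rest. The difference of 0.45 ± 0.23 was not called (limma adjusted p = 0.247, 95% interval from -0.086 to 0.98), and it was 0.18 without normal diet 1.

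Rpe encodes the epimerase that makes xylulose 5-phosphate. Its probe set with the highest mean lay at 6.79, 7.26 and 7.03 in the high-fat arrays, against 6.85, 7.32 and 6.62 in the normal diet arrays. The groups overlapped, with normal diet 2 the highest of all arrays. The difference of 0.094 ± 0.20 was not called (limma adjusted p = 0.788, 95% interval from -0.37 to 0.56). Its sign turned after quantile normalization (-0.025), with array weights (-0.025), without high-fat 2 (-0.020) and without normal diet 3 (-0.061). A second Rpe probe set differed by -0.050 ± 0.17 and was not called, and one more, at 2.28 to 2.44 in the high-fat arrays and 2.31 to 2.40 in the normal diet arrays, was below the level filter and not tested.

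Idh1 encodes the cytosolic NADP-dependent isocitrate dehydrogenase, a source of NADPH outside the pentose phosphate pathway. Its probe set with the highest mean lay at 11.61, 11.72 and 11.57 in the high-fat arrays, against 11.63, 11.36 and 10.82 in the normal diet arrays. Normal diet 1 overlapped the high-fat arrays, and normal diet 3 was the lowest. The difference was 0.36 ± 0.20 and was not called (limma adjusted p = 0.274, 95% interval from -0.10 to 0.83). Leaving out normal diet 3 gave 0.14, and leaving out normal diet 1 gave 0.54. The other Idh1 probe set differed by 0.40 ± 0.32, also not called, and both are of the kind designed to match several transcripts (suffix _s).

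Whether related enzymes responded unequally was tested for 2 pairs, with the log2 difference of the genes within each array. Tkt minus Taldo1 was 0.84 ± 0.091 in high-fat arrays and 0.51 ± 0.18 in normal diet arrays (SD, n = 3 each), a change of 0.33 (exact two-sided permutation p = 0.1, adjusted p = 0.1). Idh1 minus Idh2, whose product is the mitochondrial counterpart, was 2.09 ± 0.12 in high-fat arrays and 2.57 ± 0.17 in normal diet arrays (SD, n = 3 each), a change of -0.48 (exact two-sided permutation p = 0.1, adjusted p = 0.1). High-fat and normal diet values were fully separate in each pair. With 3 arrays against 3, a p of 0.1 is the smallest this test can give, so neither could pass. When each gene's probe sets were averaged, the changes were 0.014 and -0.0079 (exact permutation p = 1 for both). The Tkt average includes the probe set close to the level filter, whose difference was 0.17 ± 0.14.

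All 4 calls held with no level filter (5.84% of all genes called), with the filter at the median level (8.29%), with a trend and robust variance model (7.63%), with array weights (10.4%), after quantile normalization (6.37%) or median centring (8.6%) and with the mean of probe sets (7.55%). Cyclic loess, which ended the call of Taldo1, called 7.11% of all genes. Leaving out a high-fat array ended 3 of the 4 calls. With high-fat 1, 2 or 3 left out, Pgd was the only member called (adjusted p from 0.0328 to 0.0373), while 1.93%, 1.54% and 1.2% of all genes tested were called. H6pd then had limma adjusted p of 0.0729, 0.0540 and 0.0822, Tkt of 0.0589, 0.0595 and 0.0560, and Taldo1 of 0.117, 0.130 and 0.122. Their differences stayed between -1.0 and -0.89 for H6pd, between 1.01 and 1.11 for Tkt and between 0.69 and 0.74 for Taldo1. Without normal diet 3, the array that stood apart, all 4 calls held, with Pgd at 1.65, Tkt at 0.90 and Taldo1 at 0.65, and 8.85% of genes were called. Without normal diet 1, with its higher Gapdh difference, Pgd was at 1.60, Tkt at 1.05 and H6pd at -1.06, all called, and 7.57% of genes were called.

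**Figure D3:**
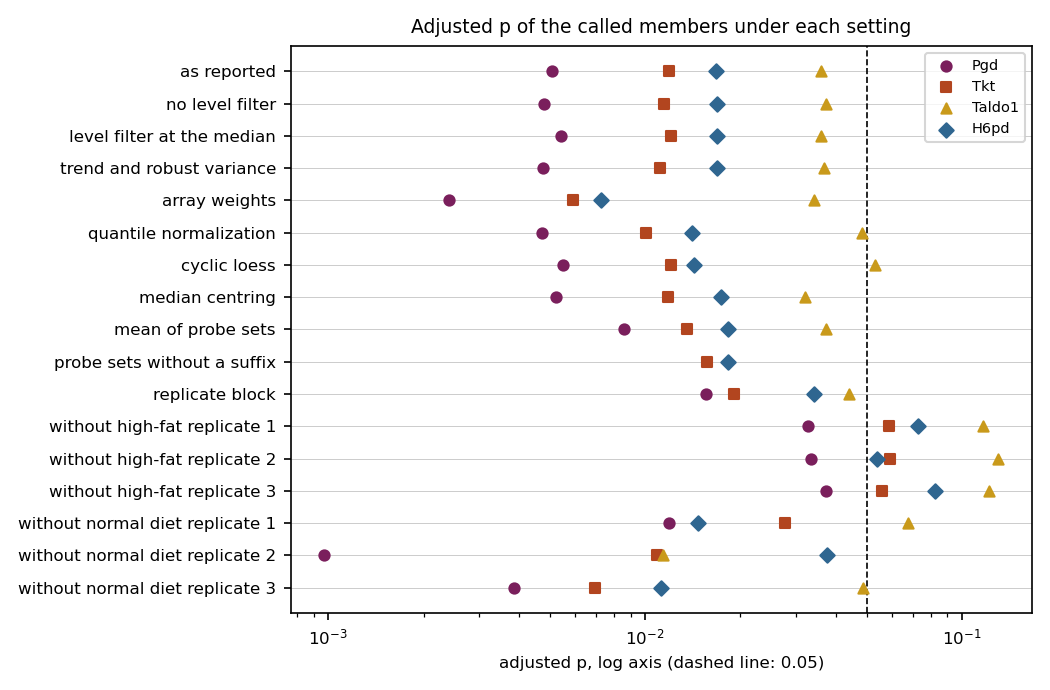
The adjusted p of the 4 called members as reported and under 16 alternatives, on a log axis with the threshold of 0.05 dashed. Pgd lay below the threshold wherever it was tested, and Tkt, Taldo1 and H6pd lay above it when 1 high-fat array was left out. Pgd and Taldo1 have no probe set without a suffix and so have no point there.

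The spread within a diet was unequal. In 7 of the 8 members the SD was larger in the normal diet group, as was the median SD over all genes tested (0.117 for high-fat and 0.166 for normal diet). Among the normal diet arrays, normal diet 2 was the highest in 5 of the 8 members, and normal diet 1 or 3 the lowest in 4 each. Without normal diet 2 the differences of Pgd, Tkt and Taldo1 were 1.97, 1.19 and 0.89, and all 4 members stayed called while 6.74% of all genes were.

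Cells other than hepatocytes also express pentose phosphate enzymes, and their markers moved with the diet. Of all genes tested 5.87% were called higher and 1.73% lower. Of 12 macrophage markers 8 rose, 0 fell and 4 were not called, and the mean level of the list was 7.82 to 7.92 in the high-fat arrays and 7.14 to 7.59 in the normal diet arrays. The lysosomal glycoprotein gene Cd68 rose 2.42-fold and Csf1r, a growth factor receptor gene, 1.74-fold. Trem2 (-0.43 ± 0.15) and Cd14 (-0.77 ± 0.49), markers of the same list, lay lower in the high-fat mean and were not called. Of genes known from Kupffer cells, the resident macrophages of liver, Cd5l (0.81 ± 0.11) and Vsig4 (0.71 ± 0.11) rose, and Clec4f (0.071 ± 0.18) and Marco (-0.059 ± 0.47) were not called. Of 8 stellate and fibroblast markers 4 rose, with list means of 6.81 to 7.38 in the high-fat arrays and 6.18 to 6.52 in the normal diet arrays, and of 8 endothelial markers 2 rose, with list means of 6.58 to 6.65 in the high-fat arrays and 6.00 to 6.24 in the normal diet arrays. Of 10 hepatocyte markers 1 fell, the transcription factor gene Hnf4a (-0.69 ± 0.11), and 9 were not called. The called share is near the 7.6% of all genes called either way. List means were 12.23 to 12.26 in the high-fat arrays and 12.35 to 12.43 in the normal diet arrays, with a median difference of -0.092. By limma 4 of the 10 had an unadjusted p below 0.05, all lower: Hnf4a, Cps1 (-0.28 ± 0.090), Tat (-0.26 ± 0.11) and Serpina1c (-0.22 ± 0.093). None of the neutrophil, lymphocyte, cholangiocyte, adipocyte and erythroid markers tested (4, 4, 4, 1 and 2 genes) was called by limma (3 of these 15 had an unadjusted p below 0.05). In bulk liver, a shift in the number of cells of a type and a shift in RNA per cell cannot be told apart, and the part of these markers in the member differences was not tested.

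The genes around the members were grouped in 7 lists with 78 genes tested. Of these 16 were called higher and 1 lower, or 21.8% against 7.6% of all genes tested, with a median difference of 0.32 against 0.0033. The lists were chosen with earlier results of these data known, so this contrast describes them and tests nothing. Of the 17 calls, 5 (Cbr3, Cybb, Cyba, Srebf1 and Hk2) held in every alternative that tested the gene. The other 12 were lost in 2 to 11 alternatives each, with a highest adjusted p of 0.0514 to 0.163, and 6, 5 and 5 of the 17 stayed called without high-fat 1, 2 and 3.

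The list of other NADPH sources also takes in genes of folate metabolism and of NADP+ supply, and 3 of its 13 genes tested were called higher and 0 lower, with a median of 0.42. Idh2, of mitochondria, lay at 9.61, 9.49 and 9.52 in the high-fat arrays, against 8.86, 8.92 and 8.32 in the normal diet arrays (0.84 ± 0.17, limma adjusted p = 0.0288). Its groups lay apart, with normal diet 3 the lowest. Mthfd2l, which encodes a mitochondrial folate dehydrogenase, rose 1.73-fold (0.79 ± 0.11). With the mean of probe sets Idh2 and Mthfd2l differed by 0.39 and 0.37, both still called. Mthfd1l rose 2.58-fold (1.37 ± 0.22), and its product is the mitochondrial formyltetrahydrofolate synthetase, which itself makes no NADPH.

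Me1 encodes the cytosolic malic enzyme, a main lipogenic source of NADPH in rodent liver. It lay at 11.06, 11.68 and 11.40 in the high-fat arrays, against 9.15, 10.75 and 9.28 in the normal diet arrays. The arrays did not overlap, but normal diet 2 lay far above the other normal diet arrays. The difference of 1.66 ± 0.41, or 3.15-fold, was not called (limma adjusted p = 0.0537). It passed without normal diet 2 (2.17, adjusted p = 0.00522) and when read from a probe set that carries no suffix (1.40, adjusted p = 0.0485). Nnt, the nicotinamide nucleotide transhydrogenase gene, and Nadk, the gene of the kinase that makes NADP+, differed by 0.55 ± 0.27 and 0.52 ± 0.19 and were not called. Without normal diet 2 Nnt differed by 0.87 and passed (adjusted p = 0.0323).

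Among genes of enzymes that spend NADPH in lipid synthesis 2 of 12 tested rose, 0 fell and 10 were not called, with a median of 0.36. Fasn, which encodes fatty acid synthase, lay at 11.50, 11.11 and 11.84 in the high-fat arrays, against 8.77, 10.35 and 9.04 in the normal diet arrays (2.10 ± 0.40, limma adjusted p = 0.0254). As in Pgd, normal diet 2 was the highest of the normal diet arrays and normal diet 1 the lowest. Dhrs7b, an ether lipid synthesis reductase gene, rose 1.86-fold (limma adjusted p = 0.0483), but its call was lost in 11 of 16 alternatives and its difference of 0.89 was 0.39 with the mean of probe sets (adjusted p = 0.124). Dhcr7, the last reductase of cholesterol synthesis, differed by 0.44 ± 0.14, Tecr, a fatty acid elongation reductase gene, by 0.42 ± 0.13 and Tm7sf2, a sterol reductase gene, by -0.41 ± 0.17, none of them called. Without normal diet 3 Dhcr7 (0.54, adjusted p = 0.0464) and Tm7sf2 (-0.59, adjusted p = 0.0233) passed.

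Redox defence and carbonyl reduction also use NADPH, and 5 of the 16 such genes tested rose while 11 went uncalled and 0 fell (median 0.37). The carbonyl reductase genes Cbr3 and Cbr1 rose 5.30-fold (2.41 ± 0.19) and 2.13-fold (1.09 ± 0.23), and Nqo1, a quinone reductase gene, rose 4.42-fold (2.14 ± 0.34). The other risers, Cybb (3.13-fold) and Cyba (1.91-fold), encode subunits of the NADPH oxidase of phagocytes, which consumes NADPH to make superoxide. Macrophage markers also rose, and their part in these differences was not tested. Genes that recycle glutathione and thioredoxin were not called: Gsr differed by 0.43 ± 0.16, Txnrd2 by 0.36 ± 0.096 and Txnrd1 by -0.31 ± 0.11. Blvrb, a biliverdin reductase gene, differed by 0.69 ± 0.18 without a call (limma adjusted p = 0.0607), and passed with array weights (0.59, adjusted p = 0.0336) and on leaving out normal diet 1 (0.84) or 3 (0.49), with adjusted p of 0.0396 and 0.0425. Txnrd2 passed after median centring (0.40, adjusted p = 0.0466).

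**Figure D4:**
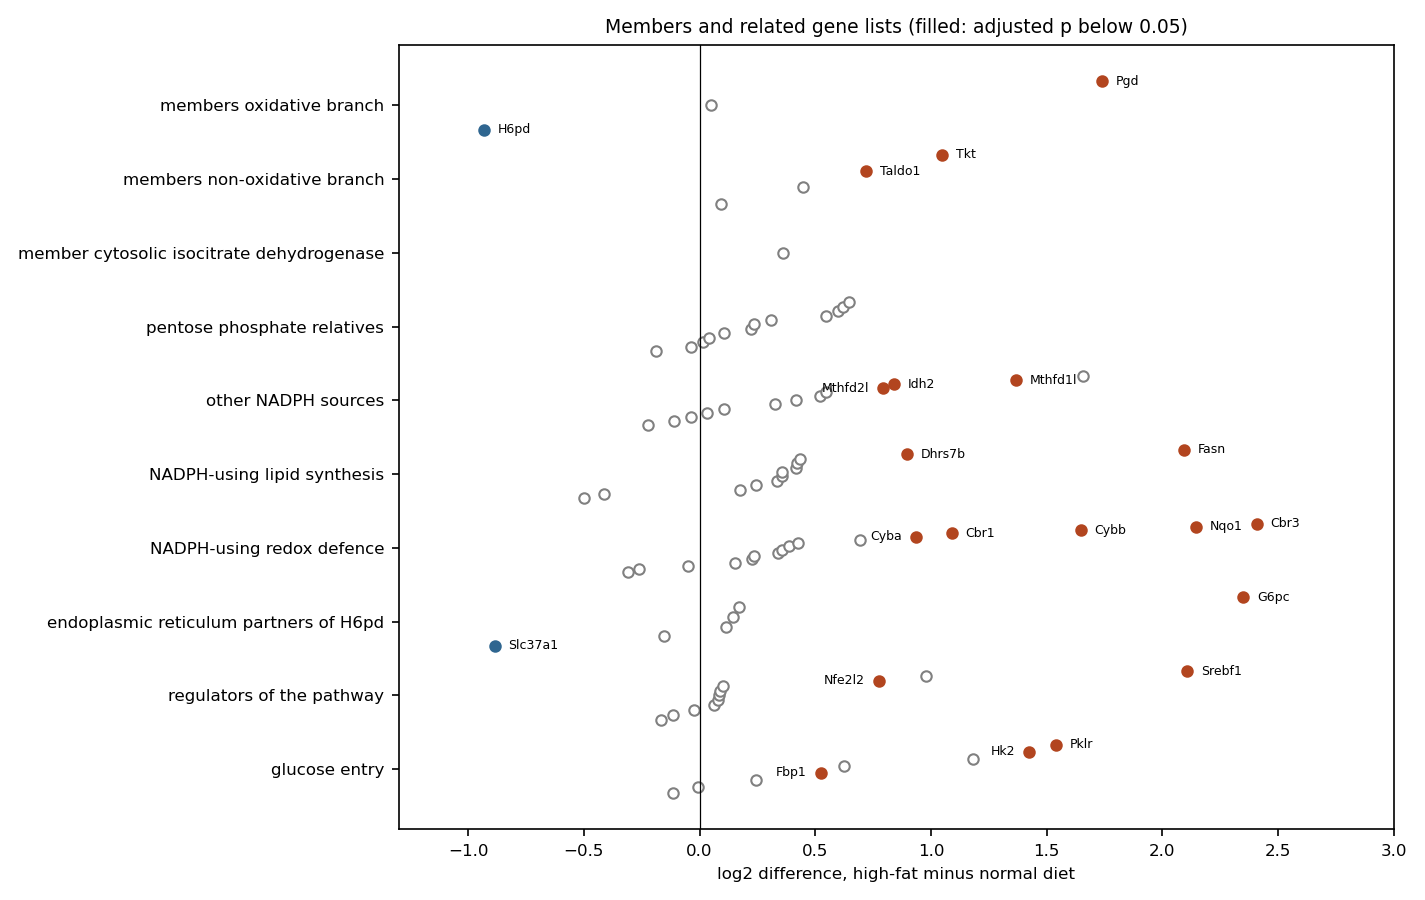
The log2 difference, high-fat minus normal diet, of each gene tested among the members and the 7 related lists, with called genes filled and named. Among the related lists 16 genes were called higher and 1 lower, Slc37a1.

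Around H6pd, in the handling of glucose 6-phosphate by the endoplasmic reticulum, 1 of 6 genes rose and 1 fell. G6pc, whose product releases free glucose from glucose 6-phosphate, rose 5.10-fold (2.35 ± 0.48, limma adjusted p = 0.0312), a call lost in 4 of 16 alternatives. Slc37a1, a sugar phosphate exchanger gene, was 1.85-fold lower (-0.89 ± 0.20, limma adjusted p = 0.0383). The Slc37a1 call was lost in 4 of 16 alternatives, among them leaving out normal diet 2 (-0.97, adjusted p = 0.0570). Hsd11b1, whose product reactivates glucocorticoids with NADPH from the H6pd reaction, lay at 12.05, 12.15 and 12.14 in the high-fat arrays, against 12.25, 12.52 and 12.03 in the normal diet arrays. Its groups overlapped, and the difference of -0.15 ± 0.14 was not called (limma adjusted p = 0.491). Slc37a4, the glucose 6-phosphate transporter gene, differed by 0.15 ± 0.13 and was not called.

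Of 12 further genes of pentose and ribose phosphate metabolism 0 were called by limma. Shpk, the sedoheptulose kinase gene, differed by 0.65 ± 0.18 (limma adjusted p = 0.0743), Prps2, a ribose phosphate pyrophosphokinase gene, by 0.60 ± 0.23, Xylb, a xylulokinase gene, by 0.62 ± 0.21 and Pgm1, a phosphoglucomutase gene, by 0.55 ± 0.20. These 4 were the genes of the list with an unadjusted p below 0.05. Prps1, a further pyrophosphokinase gene, differed by 0.015 ± 0.13.

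Among 11 regulator genes there were 2 that rose, 0 that fell and 9 without a call (median 0.086). Srebf1, whose product activates lipogenic genes, lay at 9.89, 10.09 and 10.40 in the high-fat arrays, against 8.17, 8.46 and 7.44 in the normal diet arrays (2.11 ± 0.26, limma adjusted p = 0.00731). Nfe2l2, which encodes NRF2, an activator of antioxidant and pentose phosphate genes, lay at 8.65, 8.81 and 8.91 in the high-fat arrays, against 7.91, 8.33 and 7.82 in the normal diet arrays (0.78 ± 0.15, limma adjusted p = 0.0288). In both genes the groups lay apart. The Nfe2l2 call was lost in 4 of 16 alternatives, among them leaving out normal diet 1 (0.72, adjusted p = 0.0589). Ppargc1b, a coactivator gene, differed by 0.98 ± 0.25 (limma adjusted p = 0.0566), and Mlxipl, the gene of the carbohydrate response factor ChREBP, by -0.022 ± 0.21, neither called. Ppargc1b passed with array weights (0.85, adjusted p = 0.0212) and on leaving out normal diet 1 (1.22) or 3 (0.69), with adjusted p of 0.0241 and 0.0232.

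Of 8 genes of glucose entry and use 3 rose and 0 fell, with a median of 0.58. Hk2, a hexokinase gene whose product makes glucose 6-phosphate, rose 2.68-fold (1.42 ± 0.15), Pklr, of liver pyruvate kinase, 2.90-fold (1.54 ± 0.34) and Fbp1, of fructose-1,6-bisphosphatase, 1.44-fold (0.52 ± 0.12). The glucose transporter gene Slc2a2 differed by 1.18 ± 0.36 (limma adjusted p = 0.0911) and the glucokinase regulator gene Gckr by 0.63 ± 0.18 (limma adjusted p = 0.0743), neither called. Slc2a2 passed without normal diet 3 (0.72, adjusted p = 0.0251), and Gckr without normal diet 2 (0.82, adjusted p = 0.0167). The call of Fbp1 was lost in 7 of 16 alternatives, and that of Pklr in 5 of 16, among them leaving out normal diet 1 (1.62, adjusted p = 0.0588).

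For each called member the tested genes with the closest profile were found by the root mean square difference of their log2 values over the 6 arrays, after each gene was centred on its own mean. For Tkt these were Nagk (0.042), Tax1bp3 (0.060) and Nipsnap2 (0.078), and for Taldo1 Pithd1 (0.051), Sema6d (0.058) and Kctd2 (0.058). For Pgd they were Aldh1b1 (0.13), Gas2 (0.15) and Rnd2 (0.16), and for H6pd Tirap (0.097), Fga (0.10) and Serpina9 (0.11). Nagk and Gas2 differed by -0.029 and -0.27 with probe sets without a suffix, against 1.11 and 1.46 with the probe sets used. With the mean of probe sets the neighbours of Taldo1, Sema6d (0.13, adjusted p = 0.417), Kctd2 (0.32, adjusted p = 0.123) and Pithd1 (0.31, adjusted p = 0.0631), were not called, nor was Nipsnap2 (0.44, adjusted p = 0.0679). Sema6d also lost its call after quantile normalization (0.54), after cyclic loess (0.58) and without normal diet 1 (0.54) or 3 (0.57). As reported, all of these genes were called in the direction of their member, and likeness over 6 arrays of 2 diets takes in that shared difference. Serpina9 lay at 3.21 to 3.34 in the high-fat arrays, below the level filter, and at 3.93 to 4.64 in the normal diet arrays. It passed the filter through the normal diet arrays alone, so its call and its likeness to H6pd lend no support.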

How the data were processed

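RNA of mouse livers was measured on 6 arrays, 3 per diet, with groups taken from the sample labels. Per the submitters' processing notes, the authors used RMA and Affymetrix Expression Console 1.0, and what they deposited is a log2 level for each probe set. RMA subtracts background, equalizes the distributions of the arrays and summarises the probes. RMA compresses differences near background. The table held 45101 rows and 0 missing values, and 64 control rows were left out. The platform annotation pairs 34945 of the other 45037 probe sets with 1 gene symbol and 932 with several, and 9160 are unnamed here. For each of 18193 genes the one-symbol probe set of highest mean level was used, and 14071 genes above the 40th percentile of an array in at least 3 arrays were tested.

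limma 3.58.1 in R 4.3.3 (lmFit and eBayes, two-sided) compared high-fat with normal diet, with Benjamini-Hochberg adjusted p-values over the genes tested and a threshold of 0.05 for a call. The fit was tested on simulated data. Differences between paired genes were tested over arrays by exact permutation. Python 3.11.15 (pandas 2.3.3) made the tables, and matplotlib 3.10.9 the plots. The members, the related lists and the tests were chosen with earlier results of these data known. Genes named are all members, all called genes of the related lists, up to 4 uncalled genes of each with an unadjusted p below 0.05, 11 landmark genes, and for each called member the 3 genes with the closest profile. The marker genes named were chosen after their values were seen. Promoter sequences are from RefSeq (GRCm38.p6), and the motifs were chosen after the promoters had been read. Alternatives were other level filters, variance models, array weights, scalings, choices of probe set, the replicate number as a block, and leaving out single arrays.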

Additional observations from a re-analysis of the deposited data

How the results depend on the processing

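Of the 8 members tested 4 were called as reported, and 4 were called under each alternative except cyclic loess (3), probe sets without a suffix (2 of 5 tested) and left-out arrays (1 to 4). The number of genes called was 1070 as reported and 169 to 1245 with 1 array left out, the lowest values being 272, 217 and 169 without high-fat 1, 2 and 3. Replicate numbers are shared between the diets, but same-numbered arrays did not deviate together (r = -0.012, 0.036 and 0.10 across genes), so the numbers are not read as pairs. With a replicate block 768 genes and the same number of members (4) were called, Me1 passed (adjusted p = 0.0299), Sema6d (0.0557) and Serpina9 (0.0522) did not, and 13 of the 17 called genes of the related lists stayed called. The pair changes kept their direction, with 0.25 to 0.43 for Tkt minus Taldo1 and -0.55 to -0.38 for Idh1 minus Idh2 with 1 array left out, and an exact sign-flip p of 0.25, the smallest possible, with a replicate block. They did not keep their size with the mean of probe sets, where they were 0.014 and -0.0079. Of the uncalled genes, the sign turned for Pgls after quantile normalization (-0.088) and cyclic loess (-0.079). It turned for Rpe with array weights (-0.025), after quantile normalization (-0.025) and without high-fat 2 (-0.020) or normal diet 3 (-0.061), in a range up to 0.29 with 1 array left out. Prps1 turned with array weights (-0.055), after quantile normalization (-0.12) and cyclic loess (-0.11), and without high-fat 2 (-0.029) or normal diet 1 (-0.021) or 3 (-0.068), in a range up to 0.13. Mlxipl turned after median centring (0.024) and without high-fat 1 (0.17) or normal diet 1 (0.022) or 2 (0.093), in a range down to -0.19. Among called genes, Gas2 (-0.27) and Nagk (-0.029) turned with probe sets without a suffix, which are other probe sets of those genes. The planned pairs with G6pdx were not run because it had no probe set of its own symbol alone. The cause of these changes was not tested, and 3 arrays per diet limit the precision.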
